A study of Homo sapiens with 24 samples.

Results

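The comparison described here is 48 hr in 1% oxygen against 48 hr in normal oxygen in A2780, an established human ovarian cancer cell line, read as RNA levels of single genes. Of 22446 gene symbols in the deposited table, those that reached 1 RPKM or more in 2 or more of the 12 total RNA libraries were tested, 11933 in all. RPKM divides a gene's reads by transcript length in kilobases and by the library's reads in units of 1e6, written M below. The hypoxia group (1% oxygen with 5% CO2, 48 hr) is libraries 7 and 8, and the normoxia group (48 hr) is libraries 5 and 6, so the comparison rests on 4 of the 24 samples of the series. Hypoxia and normoxia groups of 6 hr and of 6 days, also with 2 libraries each, make up the rest of the 12 total RNA libraries, and a second table holds precursor miRNAs of the same 12 libraries. All cells grew in RPMI with 10 to 15% fetal bovine serum, and the labels name no altered gene and no added agent in any group. RNA was depleted of ribosomal RNA before sequencing. Nothing in the labels tells whether both libraries of a group stem from cultures grown apart. The p-values therefore reflect the library-to-library spread, which may be technical.

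Cells sense low oxygen mainly through the hypoxia-inducible factors (HIF). In oxygen, the EGLN prolyl hydroxylases mark the HIF alpha subunit, the VHL ubiquitin ligase binds the mark and the subunit is degraded. When oxygen falls, the alpha subunit stays, pairs with ARNT and binds DNA at short elements with the letters ACGTG or GCGTG. Genes turned on in this way are known to raise glucose uptake and lactate release, to hold pyruvate back from mitochondria, and to act on blood vessels, matrix and mitochondrial turnover.

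The promoters below belong to 6 of the genes with the highest fold changes at 48 hr, and are shown because each holds the HIF letters ahead of its start. Sequences are from RefSeq on GRCh38.p14, 120 bases each, written 5′ to 3′ on the strand of the gene. Capitals mark ACGTG or GCGTG, or the same letters on the other strand (CACGT or CACGC), which overlap where both strands hold them. The stretches are chr3:48556908-48557027 (minus strand, PFKFB4), chr17:28576896-28577015 (minus, ALDOC), chr19:8363905-8364024 (plus, ANGPTL4), chr9:35673808-35673927 (plus, CA9), chr1:203026349-203026468 (plus, PPFIA4) and chr1:42380542-42380661 (plus, RIMKLA). The nearest shown match begins 166, 28, 234, 18, 84 and 248 bases before the start of these genes, in that order.
PFKFB4: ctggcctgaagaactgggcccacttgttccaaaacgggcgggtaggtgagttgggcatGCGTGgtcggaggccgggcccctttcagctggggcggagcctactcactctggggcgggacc
ALDOC: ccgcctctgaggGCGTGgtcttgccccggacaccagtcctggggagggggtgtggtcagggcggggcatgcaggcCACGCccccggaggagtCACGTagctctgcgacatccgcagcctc
ANGPTL4: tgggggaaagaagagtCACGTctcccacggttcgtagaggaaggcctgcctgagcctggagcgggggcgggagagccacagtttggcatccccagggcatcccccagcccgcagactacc
CA9: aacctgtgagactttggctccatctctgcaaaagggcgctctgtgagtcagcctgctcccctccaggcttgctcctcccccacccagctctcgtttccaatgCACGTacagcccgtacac
PPFIA4: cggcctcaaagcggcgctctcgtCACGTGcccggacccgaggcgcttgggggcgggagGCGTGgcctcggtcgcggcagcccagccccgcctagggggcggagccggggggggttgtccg
RIMKLA: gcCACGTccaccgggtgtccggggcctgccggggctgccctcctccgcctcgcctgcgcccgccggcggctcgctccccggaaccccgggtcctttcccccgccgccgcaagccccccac

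The letters are common. Within 250 bases before the start they stood in 104 of 166 promoters (62.7%) of genes at least 2-fold higher in hypoxia, in 480 of 840 (57.1%) of all higher genes, in 154 of 274 (56.2%) of lower genes and in 5453 of 9158 (59.5%) of all tested genes with a promoter in the table. Over the 27305 RefSeq promoters the share was 43.1%. Of the 15 genes with the highest fold changes named here, BNIP3L and SPAG4 have no entry, and the windows of DPYSL4 and UPK1A do not hold these letters.

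At 48 hr 1448 of 11933 genes (12.1%) passed an adjusted p of 0.05, 1103 higher in hypoxia (9.24%) and 345 lower (2.89%). The test was limma on log2(RPKM + 0.5) with Benjamini-Hochberg adjustment over all tested genes, and fold changes below are on that scale, which understates the change of genes with little RNA. At least 2-fold differences were found in 230 of the higher genes and 3 of the lower ones (MTRNR2L2, MTRNR2L6 and MIR937). Another threshold, at least 4-fold higher, was reached by 34 genes. MIR937 did not pass without library 5, 6 or 8, with 0.1 RPKM added, or with no filter. Its precursor hsa-mir-937 had 0.333 and 0 RPKM in hypoxia, against 1.43 and 1.51 RPKM in normoxia. In the limma fit of the precursors it did not pass (adjusted p = 0.3). The higher genes made up 76.2% of calls with RPKM as deposited, 57.9% of 1620 calls after quantile normalization and 55.8% of 1961 calls after centring each library on its trimmed mean, so the balance between both directions depends on scaling. The median log2 fold change over all tested genes was 0.01 as deposited, -0.05 after quantile normalization and -0.04 after centring. With library 7, 8, 5 or 6 left out, the number of calls was 619, 804, 811 and 733, and 523 of the 1448 genes passed in all 4 of these fits. Libraries 7 and 8 held 34.8 and 35.3 M reads and libraries 5 and 6 held 40.7 and 46.1 M, as inferred from the steps of the precursor values. Across the tested genes Pearson's r was 0.995 between both hypoxia libraries and 0.994 between both normoxia libraries, over genes that are not independent of each other.

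**Figure D1:**
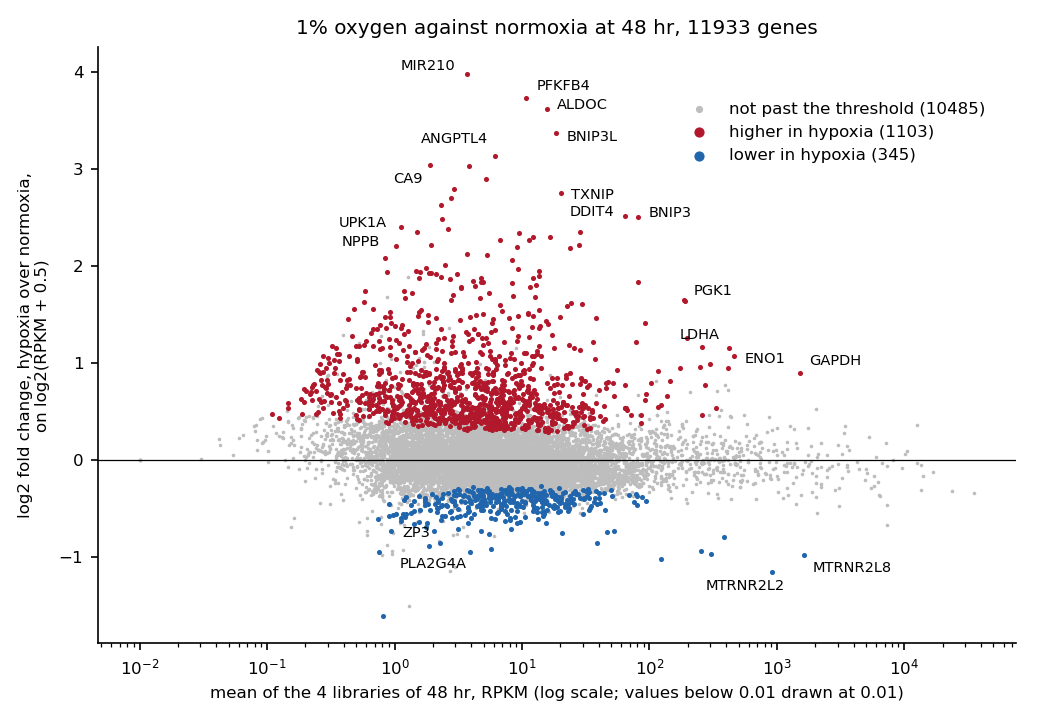
Each point is 1 of 11933 genes, with the mean RPKM of the 4 libraries of 48 hr on a log axis and the log2 fold change, hypoxia over normoxia, on log2(RPKM + 0.5). Red points are the 1103 higher and blue points the 345 lower genes past the threshold. The higher genes reach further from 0 than the lower ones, and the height of MIR210, which is listed at 0 in both normoxia libraries, depends on the added 0.5.

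Small RNAs apart, the highest fold change on the log2(RPKM + 0.5) scale belonged to PFKFB4, a bifunctional enzyme that sets the level of fructose 2,6-bisphosphate, an activator of glycolysis. PFKFB4 stood at 21.3 and 19.8 RPKM in the hypoxia libraries, against 1.07 and 1.1 RPKM in the normoxia libraries. Both hypoxia values are far above both normoxia values, and the members of each pair are close to each other. PFKFB4 rose 13.3-fold (log2 fold change 3.73 ± 0.096 SE, adjusted p = 4.00e-09). With 0.1 RPKM added in place of 0.5, CA9 and UPK1A stood above it, at log2 fold changes of 5.07 and 4.32, against 4.12 for PFKFB4. ALDOC, an aldolase of glycolysis known from brain, had 31.2 and 27.5 RPKM in hypoxia and 2.02 and 1.84 RPKM in normoxia. It rose 12.3-fold (log2 3.62 ± 0.132 SE, adjusted p = 3.98e-08). BNIP3L (NIX), a receptor that hands mitochondria to autophagy, had 36.4 and 31.8 RPKM in hypoxia, against 2.9 and 2.77 RPKM in normoxia. The groups lie more than an order of magnitude apart, and the fold was 10.4 (log2 3.37 ± 0.0983 SE, adjusted p = 7.88e-09).

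Several of the genes with the next highest folds went with little RNA in normoxia. CA9, the membrane-bound carbonic anhydrase often stained as a sign of hypoxia, had 4.48 and 3.13 RPKM in hypoxia and 0.0158 and 0.0139 RPKM in normoxia. SPAG4, a SUN-domain protein of the nuclear envelope, had 4.39 and 4.27 RPKM in hypoxia, against 0.372 and 0.357 RPKM in normoxia. UPK1A, a uroplakin of the bladder lining, had 1.94 and 2.55 RPKM in hypoxia and 0 and 0.0353 RPKM in normoxia. All 3 lie below the added 0.5 RPKM in normoxia, so their fitted folds of 8.26, 5.59 and 5.27 depend on it (adjusted p = 2.05e-07, 3.98e-08 and 6.08e-07). VLDLR, a receptor for lipoproteins rich in triglyceride, had 5.64 and 4.74 RPKM in hypoxia, against 0.378 and 0.369 RPKM in normoxia, a 6.5-fold rise (adjusted p = 1.45e-07). PPFIA4, of the liprin-alpha scaffolds, rose 8.15-fold, DPYSL4 of the collapsin response mediator family 7.45-fold, RIMKLA, which makes N-acetylaspartylglutamate, 6.96-fold, and the ankyrin repeat protein ANKRD37 6.18-fold. The hypoxia values of these 4 genes ran from 3.94 to 10.1 RPKM and their normoxia values from 0.263 to 0.895 RPKM. The folds of VLDLR, PPFIA4, RIMKLA and ANKRD37, below 0.5 RPKM in normoxia, depend on the added value too: with 1 or 0.1 RPKM added, the log2 fold change of VLDLR was 2.17 or 3.48 and that of ANKRD37 2.06 or 3.54. The adjusted p of PPFIA4, DPYSL4, RIMKLA and ANKRD37 were 3.98e-08, 7.91e-08, 8.89e-08 and 1.64e-05.

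A list of 45 tested genes that serve widely as hypoxia markers had 42 higher and 0 lower members, with a median log2 fold change of 1.20 against 0.01 over all genes tested. The list was drawn up with earlier results of these data known and is no independent evidence. FAM162A, a mitochondrial protein of hypoxia-driven cell death, had 134 and 121 RPKM in hypoxia, against 36.7 and 34.3 RPKM in normoxia, and rose 3.56-fold (adjusted p = 6.51e-07). The members that did not pass were GPI, KIF5A and IGFBP3. GPI, which turns glucose 6-phosphate into fructose 6-phosphate, had 34.3 and 35 RPKM in hypoxia and 37.6 and 41 RPKM in normoxia (adjusted p = 0.291).

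Glucose enters through the SLC2A transporters and is trapped by hexokinases, and 5 of 9 tested genes listed for this step were higher and 0 lower. The 5 include SLC2A4RG, which is on this list but is neither a transporter nor a hexokinase. SLC2A4RG lost its call without library 5, 6 or 8. The transporter SLC2A1 had 21.5 and 19.99 RPKM in hypoxia and 3.48 and 4.15 RPKM in normoxia. SLC2A3 had 23.5 and 20.1 RPKM in hypoxia, against 5.06 and 5.47 RPKM in normoxia. Both transporters lay at like levels per length within each group, and they rose 4.93-fold and 3.86-fold (log2 2.30 ± 0.0993 and 1.95 ± 0.0916 SE, adjusted p = 8.89e-08 and 1.70e-07). Hexokinase HK2 had 35.3 and 33.3 RPKM in hypoxia, against 11 and 11.1 RPKM in normoxia, and rose 3.01-fold (adjusted p = 1.47e-06). HK1, the hexokinase of most tissues, had 14.8 and 14.7 RPKM in hypoxia and 6.34 and 6.81 RPKM in normoxia, and rose 2.16-fold (adjusted p = 2.34e-05).

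The committed step of glycolysis split by isoform. Of 7 tested phosphofructokinases and regulators, 4 were higher and 0 lower. PFKP, the platelet isoform, had 45.9 and 46.3 RPKM in hypoxia, against 9.24 and 9.73 RPKM in normoxia. PFKL, the liver isoform, had 32.6 and 32.5 RPKM in hypoxia and 14.7 and 13.5 RPKM in normoxia. PFKM, the muscle isoform, had 27.2 and 27.5 RPKM in hypoxia, against 31.8 and 31.2 RPKM in normoxia. In normoxia PFKM was the isoform with the highest RPKM and in hypoxia PFKP was. PFKP rose 4.67-fold (log2 2.22 ± 0.0926 SE, adjusted p = 7.90e-08) and PFKL 2.27-fold (adjusted p = 8.32e-05), while PFKM did not pass (log2 -0.20 ± 0.0904 SE, adjusted p = 0.184). Beside PFKFB4, the activator enzyme PFKFB3 had 23.8 and 22 RPKM in hypoxia and 8.36 and 7.95 RPKM in normoxia, and rose 2.7-fold (adjusted p = 2.23e-06). PFKFB2 did not pass, with 4.03 and 4.36 RPKM in hypoxia, against 4.66 and 5.18 RPKM in normoxia (adjusted p = 0.184). TIGAR, which lowers fructose 2,6-bisphosphate and is listed in the table as C12orf5, had 3.34 and 3.49 RPKM in hypoxia and 3.41 and 3.21 RPKM in normoxia (adjusted p = 0.838).

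From aldolase to lactate dehydrogenase 12 of 15 tested genes were higher and 0 lower, with a median log2 fold change of 0.95. These enzymes are among the most abundant RNAs that changed. LDHA, which makes lactate from pyruvate, had 598 and 572 RPKM in hypoxia, against 259 and 264 RPKM in normoxia. LDHB, its partner subunit, had 375 and 353 RPKM in hypoxia and 407 and 387 RPKM in normoxia. In normoxia LDHB lay above LDHA in both libraries, and in hypoxia LDHA lay above LDHB in both. LDHA rose 2.23-fold (log2 1.16 ± 0.139 SE, adjusted p = 0.000243), and LDHB did not pass (log2 -0.13 ± 0.124 SE, adjusted p = 0.562). PGK1, an enzyme of the steps that yield ATP, had 296 and 281 RPKM in hypoxia and 92.5 and 92.4 RPKM in normoxia, a 3.11-fold rise (adjusted p = 5.51e-06). The enolase ENO2, known from neurons, had 50.8 and 46 RPKM in hypoxia, against 9.3 and 8.85 RPKM in normoxia. ENO1, the common enolase, had 633 and 619.8 RPKM in hypoxia and 289 and 307 RPKM in normoxia. ENO2 rose 5.1-fold and ENO1 2.1-fold (adjusted p = 3.98e-08 and 0.000746), so of these 2 the isoform with less RNA had the higher fold. A further enolase, ENO3, passed with a log2 fold change of 0.90, smaller than that of either (adjusted p = 0.000337). ALDOC, with less RNA than ALDOA, likewise had the higher fold of that pair. ALDOA had 547 and 535 RPKM in hypoxia, against 275 and 284 RPKM in normoxia (1.94-fold, adjusted p = 0.00208).

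TPI1 rose 2.25-fold to 365 and 348 RPKM in hypoxia, against 163 and 153 RPKM in normoxia (adjusted p = 6.60e-05). The pyruvate kinase gene, listed as PKM2, had 401 and 399 RPKM in hypoxia and 202 and 200.2 RPKM in normoxia, a 1.99-fold rise (adjusted p = 0.000176). PGAM1 rose 1.76-fold (adjusted p = 0.00251), with 193 and 178 RPKM in hypoxia and 99.3 and 112 RPKM in normoxia. GAPDH, often used as a reference in RNA assays, had 2049.7 and 1927 RPKM in hypoxia, against 971 and 1167 RPKM in normoxia. The groups do not overlap and GAPDH rose 1.87-fold (adjusted p = 0.010), a call that was lost without library 5, 7 or 8 (adjusted p up to 0.0982). Genes of this group have near-identical copies in the genome, and how reads were shared among copies is not given in the sources used here.

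**Figure D2:**
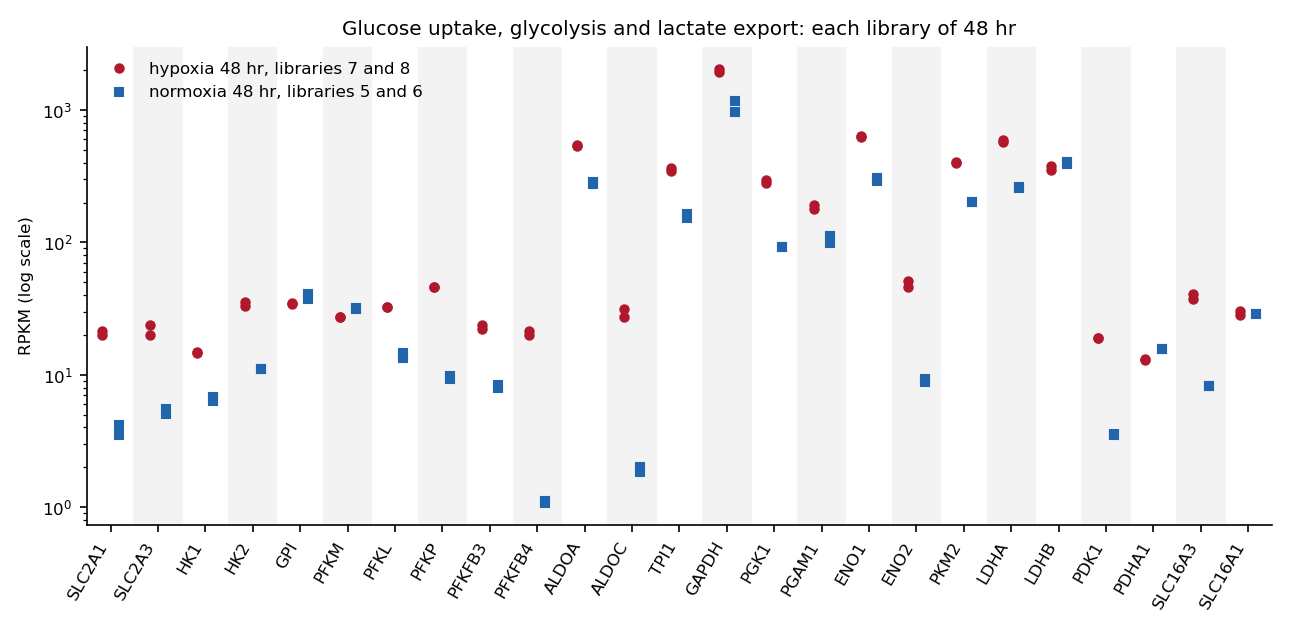
RPKM on a log axis of 25 genes of glucose uptake, glycolysis, pyruvate entry and lactate export in each library of 48 hr, with hypoxia (red circles, left) and normoxia (blue squares, right). The pairs of SLC2A1, PFKP, PFKFB4, ALDOC, ENO2, PDK1 and SLC16A3 lie far apart, while GPI, PFKM, LDHB, PDHA1 and SLC16A1 have no call.

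At the gate to mitochondria 2 of 13 tested genes were higher (15.4%, against 9.24% over all genes) and 0 lower. Both higher genes are kinases that switch off pyruvate dehydrogenase. PDK1 had 19.1 and 18.9 RPKM in hypoxia, against 3.52 and 3.57 RPKM in normoxia, and rose 4.81-fold (log2 2.27 ± 0.0878 SE, adjusted p = 3.98e-08). PDK3 had 10.9 and 10.2 RPKM in hypoxia and 3.14 and 3.49 RPKM in normoxia, and rose 2.91-fold (adjusted p = 3.06e-06). PDK2 had 3.85 and 3.41 RPKM in hypoxia, against 3.14 and 3.39 RPKM in normoxia, and did not pass (adjusted p = 0.533). The enzyme's own subunit PDHA1 did not pass either, with 13.2 and 13 RPKM in hypoxia and 15.6 and 15.7 RPKM in normoxia (adjusted p = 0.135). Among 12 tested genes of acid and lactate export, CA9 and SLC16A3 were higher (16.7%, against 9.24% over all genes) and 0 lower. SLC16A3 (MCT4), which lets lactate out, had 40.9 and 37.5 RPKM in hypoxia and 8.22 and 8.25 RPKM in normoxia, a 4.54-fold rise (adjusted p = 5.66e-07). Its relative SLC16A1 (MCT1) had 30.1 and 28.4 RPKM in hypoxia, against 29 and 29 RPKM in normoxia, with overlapping groups (log2 0.01 ± 0.084 SE, adjusted p = 0.95).

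Glycogen genes moved at both ends of the pathway, with 8 of 20 tested members higher and 1 lower. PPP1R3C, which targets a phosphatase to glycogen and favours its synthesis, had 9.61 and 8.26 RPKM in hypoxia, against 1.89 and 1.49 RPKM in normoxia. The glycogen synthase GYS1 had 25.7 and 24.2 RPKM in hypoxia and 10.3 and 11.5 RPKM in normoxia. The branching enzyme GBE1 had 25.4 and 21.5 RPKM in hypoxia, against 8.34 and 8.7 RPKM in normoxia. These 3 genes rose 4.32-, 2.23- and 2.65-fold (adjusted p = 1.67e-06, 2.71e-05 and 1.99e-05). PGM1, which joins the glucose 6-phosphate and glucose 1-phosphate pools, rose 2.81-fold (adjusted p = 0.000106), and STBD1, a protein that binds glycogen, 2.56-fold (adjusted p = 1.68e-05). On the side of breakdown, the phosphorylase PYGL had 37.8 and 36.9 RPKM in hypoxia and 22.2 and 24.2 RPKM in normoxia, a 1.6-fold rise (adjusted p = 0.000691). The lower member was GYG1, glycogenin, the primer of new glycogen particles, at 11.3 and 12.3 RPKM in hypoxia, against 17 and 20.7 RPKM in normoxia (log2 -0.65 ± 0.099 SE, adjusted p = 0.0014).

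**Figure D3:**
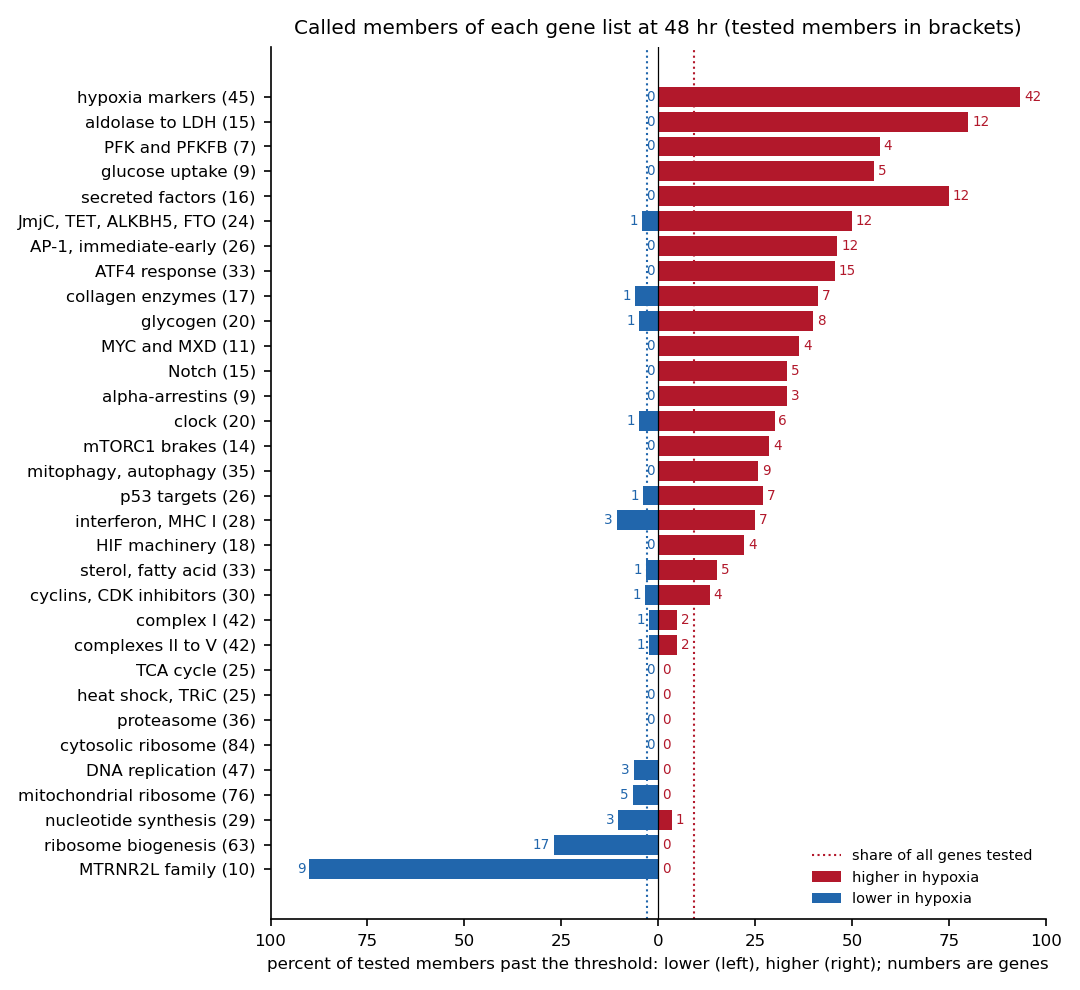
Share of tested members of 32 gene lists that passed the threshold at 48 hr, higher in hypoxia to the right and lower to the left, with the number of genes at each bar and of tested members in brackets. The dotted lines are the shares over all tested genes, 9.24% higher and 2.89% lower. Lists overlap, and they were written with earlier results known.

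Of the HIF system itself 4 of 18 tested members were higher (22.2%, against 9.24% over all genes) and 0 lower. HIF1A, the alpha subunit, had 13.3 and 15.5 RPKM in hypoxia, against 14.3 and 18.3 RPKM in normoxia, and its partner ARNT had 15.4 and 15.6 RPKM in hypoxia and 15.4 and 15.6 RPKM in normoxia. Both overlap between the groups and neither passed (adjusted p = 0.621 and 0.986). EGLN1, the prolyl hydroxylase that starts HIF degradation, had 21.8 and 18.8 RPKM in hypoxia and 7.56 and 7.31 RPKM in normoxia, a 2.62-fold rise (log2 1.39 ± 0.12 SE, adjusted p = 1.99e-05). EGLN2, a further prolyl hydroxylase, had 11.6 and 12.2 RPKM in hypoxia, against 12.4 and 10.5 RPKM in normoxia, and did not pass (adjusted p = 0.882). EGLN3 was too low to be tested, at 0.295 and 0.302 RPKM in hypoxia and 0.0541 and 0.0873 RPKM in normoxia. EPAS1 was untested too, at 0.244 and 0.197 RPKM in hypoxia and 0.0618 and 0.117 RPKM in normoxia. HIF3A and ARNT2, also untested, lay below 0.1 RPKM in both groups. SIAH2, a ubiquitin ligase that acts on prolyl hydroxylases, rose 1.56-fold (adjusted p = 0.0022), with 10.0 and 9.72 RPKM in hypoxia and 5.92 and 6.42 RPKM in normoxia. FKBP8, which anchors a prolyl hydroxylase, had 61.1 and 58.5 RPKM in hypoxia, against 37.8 and 30.5 RPKM in normoxia (1.75-fold, adjusted p = 0.0023). CITED2, which competes with HIF for a coactivator, rose 1.48-fold (adjusted p = 0.00955), but not without library 5 or 7 (adjusted p up to 0.115).

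Other enzymes that need oxygen had more calls. Of 24 tested Jumonji demethylases, TET enzymes and RNA demethylases, 12 were higher and 1 lower, with a median log2 fold change of 0.37, and 8, 9, 10 and 8 were higher and 0 lower without library 7, 8, 5 and 6. KDM3A, which removes methyl marks from histone H3 lysine 9, had 21.4 and 19.9 RPKM in hypoxia and 6.8 and 6.6 RPKM in normoxia. KDM4B, of the same substrate, had 5.96 and 6.03 RPKM in hypoxia, against 1.89 and 1.79 RPKM in normoxia. They rose 2.93-fold and 2.78-fold (adjusted p = 3.23e-05 and 2.83e-06). KDM7A, listed as JHDM1D, rose 2.13-fold (adjusted p = 9.80e-05) and KDM5B 1.68-fold (adjusted p = 0.00013). TET1, which oxidises methylcytosine in DNA, had 4.45 and 4.2 RPKM in hypoxia and 1.98 and 2.19 RPKM in normoxia (1.87-fold, adjusted p = 0.000123), while TET3 had 2.69 and 2.83 RPKM in hypoxia, against 2.65 and 2.57 RPKM in normoxia (adjusted p = 0.674). Of the 2 RNA demethylases, ALKBH5 rose 1.68-fold (adjusted p = 0.00131). FTO was the lower member, at 6.82 and 7.02 RPKM in hypoxia, against 8.59 and 8.59 RPKM in normoxia (adjusted p = 0.0496), and did not pass without any 1 of the 4 libraries (adjusted p up to 0.247).

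Enzymes that hydroxylate and cross-link collagen had 7 of 17 tested members higher and 1 lower. PLOD2, a lysyl hydroxylase, had 29 and 26.9 RPKM in hypoxia and 5.22 and 5.32 RPKM in normoxia, a 4.93-fold rise (log2 2.30 ± 0.117 SE, adjusted p = 3.15e-07). The prolyl hydroxylase subunit P4HA1 had 47.5 and 41.5 RPKM in hypoxia, against 13.6 and 14.9 RPKM in normoxia. Its relative P4HA2 had 39.3 and 34.6 RPKM in hypoxia and 11.6 and 11.7 RPKM in normoxia. The subunits rose 3.05-fold and 3.07-fold (adjusted p = 9.42e-06 and 2.71e-05). LOXL2, a lysyl oxidase, rose 3.69-fold to 4.03 and 3.84 RPKM in hypoxia, against 0.554 and 0.868 RPKM in normoxia (adjusted p = 1.78e-06). LOX had 1.82 and 1.4 RPKM in hypoxia and 0.223 and 0.228 RPKM in normoxia (2.89-fold, adjusted p = 1.20e-05).

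Secreted factors had 12 of 16 tested members higher and 0 lower, with a median log2 fold change of 0.69. ANGPTL4, a secreted inhibitor of lipoprotein lipase, had 12 and 11 RPKM in hypoxia, against 0.757 and 0.976 RPKM in normoxia (8.81-fold, log2 3.14 ± 0.117 SE, adjusted p = 3.98e-08). STC2, a stanniocalcin, had 16.4 and 15.9 RPKM in hypoxia and 2.71 and 2.85 RPKM in normoxia (5.08-fold, adjusted p = 3.98e-08). ADM, the vessel-relaxing peptide adrenomedullin, had 15 and 12.6 RPKM in hypoxia, against 2.82 and 2.99 RPKM in normoxia (4.18-fold, adjusted p = 7.27e-07). In all 3 the hypoxia values lie well above the normoxia values. VEGFA, the main growth factor of blood vessels, had 13.1 and 12.3 RPKM in hypoxia and 7.01 and 6.34 RPKM in normoxia, a smaller rise of 1.84-fold (adjusted p = 0.000417). FGF11, of the fibroblast growth factor family, rose 3.65-fold (adjusted p = 3.23e-06). Of the secreted factors, MIF, a cytokine, had the highest level of those named here, 150.3 and 155 RPKM in hypoxia, against 78 and 83.6 RPKM in normoxia (1.89-fold, adjusted p = 0.00132).

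Mitophagy and autophagy genes had 9 of 35 tested members higher and 0 lower, with 5, 5, 6 and 6 higher without library 7, 8, 5 and 6. BNIP3, partner of BNIP3L as a mitophagy receptor, had 146 and 133 RPKM in hypoxia and 22.4 and 25.8 RPKM in normoxia, a 5.69-fold rise (log2 2.51 ± 0.109 SE, adjusted p = 8.99e-08). Both receptors stood apart from the rest of the list in size. The next members were ATG9A, a membrane protein that feeds growing autophagosomes, at 1.87-fold (adjusted p = 0.000427), and GABARAPL1, which coats them, at 1.76-fold (adjusted p = 0.000636).

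A list drawn up for brakes on mTORC1, the kinase complex that drives cell growth, had 4 of 14 tested members higher and 0 lower. DDIT4 (REDD1), which acts on mTORC1 through the TSC complex, had 116 and 105 RPKM in hypoxia, against 19.3 and 18.3 RPKM in normoxia. The 2 hypoxia values stand far above the normoxia values, a 5.74-fold rise (log2 2.52 ± 0.118 SE, adjusted p = 1.70e-07). SESN2, a sestrin that senses leucine, had 9.18 and 8.16 RPKM in hypoxia and 2.84 and 3.03 RPKM in normoxia (2.66-fold, adjusted p = 1.45e-06). RRAGD, a Rag GTPase of the lysosome that is on this list but is not a brake on mTORC1, rose 3.46-fold (adjusted p = 1.47e-06). TSC2 itself had 5.75 and 5.46 RPKM in hypoxia, against 4.95 and 5.02 RPKM in normoxia, and did not pass (adjusted p = 0.273).

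TXNIP and ARRDC4, alpha-arrestins that limit glucose uptake and respond to sugar phosphates, were higher at the same time as the glucose transporters. TXNIP had 37.9 and 33.4 RPKM in hypoxia and 4.79 and 4.91 RPKM in normoxia, a 6.74-fold rise (log2 2.75 ± 0.142 SE, adjusted p = 3.59e-07). ARRDC4 had 5.84 and 4.93 RPKM in hypoxia, against 1.24 and 1.19 RPKM in normoxia (3.42-fold, adjusted p = 6.68e-07). ARRDC3 rose 1.73-fold (adjusted p = 0.000709), making 3 higher and 0 lower of the 9 tested members of this list, which also holds thioredoxins. Thioredoxin itself, TXN, had 136 and 139 RPKM in hypoxia and 136 and 141 RPKM in normoxia (adjusted p = 0.981).

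The ATF4 program, which cells run when amino acids are short or proteins misfold, had 15 of 33 tested members higher and 0 lower, with 10, 11, 13 and 10 higher without library 7, 8, 5 and 6. Its median log2 fold change was 0.04 at 6 hr, 0.38 at 48 hr and -0.14 at 6 days. VLDLR, SESN2 and VEGFA are among the 15 and were named above. CHAC1, which breaks down glutathione, had 8.91 and 7.2 RPKM in hypoxia, against 2.09 and 1.69 RPKM in normoxia (3.57-fold, adjusted p = 3.54e-06). DDIT3 (CHOP), a transcription factor of this stress, had 8.44 and 6.69 RPKM in hypoxia and 3.78 and 4.32 RPKM in normoxia (1.77-fold, adjusted p = 0.000435). TRIB3, a pseudokinase, rose 1.55-fold (adjusted p = 0.00415, and 0.0533 without library 7). ATF4 had 103 and 98 RPKM in hypoxia, against 72.9 and 71.8 RPKM in normoxia (1.38-fold, adjusted p = 0.0307), a call lost without library 5, 6, 7 or 8 (adjusted p up to 0.189). ASNS, the asparagine synthetase often read as its target, had 11.8 and 10.9 RPKM in hypoxia and 6.87 and 7.97 RPKM in normoxia and did not pass (adjusted p = 0.101). The cytosolic aminoacyl-tRNA synthetases, kept as a list apart, had 0 of 22 tested members higher and 1 lower. The median log2 fold change of these synthetases was -0.08, and 16 of the 22 had a fold change below 0. Of chaperones of the endoplasmic reticulum and genes of the unfolded protein response, 5 of 27 were higher (18.5%, against 9.24% over all genes) and 1 lower. Their median log2 fold change was 0.002, and after quantile normalization only 2 of these genes were higher and 2 lower. Of these ERO1L, the oxidase of that compartment, kept its call in every fit (1.8-fold, 32.1 and 24.8 RPKM in hypoxia, against 16.1 and 14.9 RPKM in normoxia, adjusted p = 0.00103).

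Among transcription factors, 12 of 26 tested AP-1 and immediate-early genes were higher and 0 lower (7, 12, 8 and 8 higher without library 7, 8, 5 and 6). ATF3 had 8.53 and 6.92 RPKM in hypoxia and 1.8 and 1.78 RPKM in normoxia (3.57-fold, adjusted p = 1.18e-05). JUN had 18 and 15.3 RPKM in hypoxia, against 5.78 and 5.25 RPKM in normoxia (2.85-fold, adjusted p = 0.000243). FOSL2 had 4.86 and 4.14 RPKM in hypoxia and 1.14 and 1.05 RPKM in normoxia (3.13-fold, adjusted p = 1.95e-06). Their AP-1 relative FOS did not pass, at 1.91 and 1.34 RPKM in hypoxia, against 1.21 and 1.11 RPKM in normoxia (adjusted p = 0.394). In the MYC network 4 of 11 tested members were higher and 0 lower, with 2 higher without library 7. MXI1, which competes with MYC for MAX, had 7.19 and 6.24 RPKM in hypoxia and 1.44 and 1.56 RPKM in normoxia (3.6-fold, adjusted p = 1.23e-06). MYC had 35.3 and 33.1 RPKM in hypoxia, against 26.3 and 29.1 RPKM in normoxia, and did not pass (adjusted p = 0.080). Of 20 tested clock genes 6 were higher and 1 lower, with 3 higher without library 7. BHLHE40 (DEC1), a repressor of the clock, rose 2.1-fold (adjusted p = 0.000125) and PER1 1.61-fold (adjusted p = 0.00114).

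In the Notch pathway 5 of 15 tested members were higher and 0 lower. HES4, a target gene, had 7.38 and 7.72 RPKM in hypoxia and 2.53 and 2.16 RPKM in normoxia (2.83-fold, adjusted p = 3.74e-05). The receptor NOTCH3 had 1.24 and 1.24 RPKM in hypoxia, against 0.316 and 0.262 RPKM in normoxia (2.21-fold, adjusted p = 2.71e-05). NRARP, a feedback inhibitor, rose 1.67-fold (adjusted p = 0.00221) and RBPJ, the DNA-binding partner, 1.55-fold (adjusted p = 0.00159).

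MHC class I genes, which show peptides to T cells, were higher, while the peptide transporters were lower by small and unstable differences. HLA-B had 60.6 and 52.1 RPKM in hypoxia and 21.7 and 18.5 RPKM in normoxia (2.76-fold, adjusted p = 6.38e-06), and HLA-C had 76.8 and 68.8 RPKM in hypoxia, against 41 and 35.2 RPKM in normoxia (1.9-fold, adjusted p = 0.000791). HLA-E rose 1.43-fold (adjusted p = 0.00933), but not without library 6 or 7 (adjusted p up to 0.108). These genes are alike in sequence, and how reads were split among them is not given, so single values are uncertain. B2M, the invariant light chain, had 99.4 and 101 RPKM in hypoxia and 103 and 114 RPKM in normoxia and did not pass (adjusted p = 0.551). The peptide transporter TAP1 fell to 4.46 and 4.05 RPKM in hypoxia, against 5.21 and 6.15 RPKM in normoxia (adjusted p = 0.0368), and did not pass without library 6, 7 or 8 (adjusted p up to 0.269). Its partner TAP2 fell to 13.1 and 13.3 RPKM in hypoxia, against 19 and 16.8 RPKM in normoxia (adjusted p = 0.0437), and did not pass without any 1 of the 4 libraries (adjusted p up to 0.234). In the list of interferon and MHC class I genes 7 of 28 were higher and 3 lower. Without library 7, 8, 5 and 6 the higher ones were 4, 6, 5 and 5 and the lower ones 0, 1, 2 and 0.

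Of 30 tested cyclins, their kinases and kinase inhibitors 4 were higher (13.3%, against 9.24% over all genes) and 1 lower, with a median log2 fold change of -0.02. The 4 higher genes are inhibitors: CDKN1A, CDKN1C, CDKN2D and CDKN1B, the last not without any 1 of the 4 libraries (adjusted p up to 0.255). CDKN1A (p21) had 2.57 and 2.71 RPKM in hypoxia, against 0.747 and 1.01 RPKM in normoxia (2.29-fold, adjusted p = 0.000198). CDKN2D had 7.16 and 6.82 RPKM in hypoxia and 3.09 and 3.66 RPKM in normoxia (1.94-fold, adjusted p = 0.000247), and CDKN1C rose 2.06-fold (adjusted p = 0.000496). The kinase CDK6 fell 1.42-fold, with 2.54 and 2.51 RPKM in hypoxia, against 3.71 and 3.86 RPKM in normoxia (adjusted p = 0.00291). The cyclin CCND1 had 24.2 and 23.3 RPKM in hypoxia and 20.6 and 21.8 RPKM in normoxia and did not pass (adjusted p = 0.354). Of 26 tested p53 targets 7 were higher and 1 lower, but their median log2 fold change of 0.03 turned to -0.03 after quantile normalization and -0.02 after centring.

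INSIG2, which holds the sterol sensor in the endoplasmic reticulum, had 12.6 and 10.3 RPKM in hypoxia and 2.02 and 1.93 RPKM in normoxia, a 4.81-fold rise (log2 2.26 ± 0.115 SE, adjusted p = 3.15e-07). Of 33 tested genes of sterol and fatty acid synthesis 5 were higher and 1 lower, and with any 1 library left out 3 were higher. HMOX1, which breaks down heme, had 21 and 18 RPKM in hypoxia and 5.59 and 5.84 RPKM in normoxia (3.21-fold, adjusted p = 1.18e-05). STEAP3, a reductase that frees iron taken up with transferrin, fell 1.66-fold to 3.38 and 3.59 RPKM in hypoxia, against 6.15 and 6.04 RPKM in normoxia (adjusted p = 0.0011). The long RNA H19 had 14.2 and 12.4 RPKM in hypoxia and 3.23 and 3.57 RPKM in normoxia, and rose 3.54-fold (adjusted p = 3.54e-06). NEAT1, the scaffold RNA of nuclear paraspeckles, had 29.8 and 29 RPKM in hypoxia, against 10.5 and 10.1 RPKM in normoxia, and rose 2.77-fold (adjusted p = 4.55e-06). AK4, an adenylate kinase of mitochondria, rose 3.74-fold (adjusted p = 5.66e-07).

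Markers of the labelled cell type and of other types were read beside these results. Of 14 epithelial and Müllerian markers 3 were tested, and 9 were below 0.1 RPKM in all 4 libraries, among them KRT7, CDH1, PAX8 and MUC16. Their summed level was 76.7 and 71.9 RPKM in hypoxia, against 71.8 and 74.6 RPKM in normoxia. Of 11 leukocyte markers none was tested and the sums were 0.441 to 0.527 RPKM over the 4 libraries. Endothelial markers summed to 0.86 and 0.923 RPKM in hypoxia, against 0.251 and 0.386 RPKM in normoxia, with 7 of 8 below 0.1 RPKM in all 4 libraries. Of 11 fibroblast and smooth muscle markers 6 were tested, 4 were higher and 2 had a log2 fold change below 0. The higher ones were LUM, TAGLN, DCN and ACTA2, with log2 fold changes of 1.11, 0.66, 0.54 and 0.46. TAGLN did not pass without library 6, DCN without library 7, nor ACTA2 without library 5, 7 or 8. All 11 markers summed to 233.1 and 232.7 RPKM in hypoxia, against 155.2 and 148.4 RPKM in normoxia. LUM, a proteoglycan of connective tissue, had 15.2 and 13.4 RPKM in hypoxia and 6.01 and 6.72 RPKM in normoxia (2.15-fold, adjusted p = 0.000463). All samples come from a single cell line, so these markers are read as RNA levels and not as counts of other cell types. In bulk RNA more cells with a marker and more RNA per cell cannot be told apart, and the part of these markers in the results above was not tested.

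Fewer genes fell, and by less. Small RNAs apart, the lowest fold changes past the threshold were in the MTRNR2L family, nuclear copies of mitochondrial 16S ribosomal RNA that can encode peptides like humanin: 9 of 10 tested members fell, with a median log2 fold change of -0.92. MTRNR2L2 had 554 and 582 RPKM in hypoxia, against 1325 and 1195 RPKM in normoxia (2.21-fold lower, log2 -1.15 ± 0.234 SE, adjusted p = 0.00831). MTRNR2L8 had 1049.9 and 1149 RPKM in hypoxia and 2169 and 2157 RPKM in normoxia (1.97-fold lower, adjusted p = 0.0105). MTRNR2L1 had 211 and 203 RPKM in hypoxia, against 437 and 374 RPKM in normoxia (1.96-fold lower, adjusted p = 0.00524). The copies can share reads with each other and with the mitochondrial transcript, so they are not separate measurements. Their calls also depend on single libraries: without library 7, 8, 5 and 6 the number that fell was 1, 3, 3 and 5, and MTRNR2L2 did not pass without library 5 or 7 nor MTRNR2L8 without library 7 or 8 (adjusted p up to 0.0749 and 0.112). MTRNR2L1 passed in each of these fits.

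Outside that family PLA2G4A, the cytosolic phospholipase that frees arachidonic acid, had 2.54 and 2.52 RPKM in hypoxia, against 5.49 and 5.15 RPKM in normoxia. The values within each pair are close, and PLA2G4A fell 1.92-fold (log2 -0.94 ± 0.118 SE, adjusted p = 0.000339). MLKL, which carries out necroptosis, had 1.06 and 1.26 RPKM in hypoxia and 2.5 and 2.6 RPKM in normoxia (1.84-fold lower, adjusted p = 0.000579). ZP3, known as an egg-coat protein, had 1.33 and 1.61 RPKM in hypoxia, against 3.06 and 3.06 RPKM in normoxia (1.81-fold lower, adjusted p = 0.00198). HMGN5, a protein that binds nucleosomes, had 3.57 and 4.29 RPKM in hypoxia and 6.7 and 7.3 RPKM in normoxia (1.7-fold lower, adjusted p = 0.000803). All 4 of these genes passed under every alternative run.

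Ribosome biogenesis was the list with the most falling members: 17 of 63 tested genes were lower and 0 higher, with a median log2 fold change of -0.26, and 58 of the 63 had a fold change below 0. UTP20, a part of the complex that cuts pre-ribosomal RNA, had 10.5 and 10.8 RPKM in hypoxia, against 16.1 and 15.1 RPKM in normoxia (1.45-fold lower, adjusted p = 0.00106). HEATR1, which is needed for pre-ribosomal transcription and processing, had 15.4 and 16 RPKM in hypoxia and 22.2 and 23.8 RPKM in normoxia (1.45-fold lower, adjusted p = 0.00198). LTV1, an assembly factor of the small subunit, had 13.1 and 12.9 RPKM in hypoxia, against 19.5 and 17.9 RPKM in normoxia (1.43-fold lower, adjusted p = 0.00175). The differences are small, and without library 7, 8, 5 and 6 the calls were 3, 5, 4 and 4. After quantile normalization 20 were lower and 1 higher, and after centring 30 lower and 1 higher. Proteins of the mitochondrial ribosome had 5 of 76 tested members lower and 0 higher (2, 1, 1 and 2 lower without library 7, 8, 5 and 6, and 13 lower and 1 higher after centring). MRPL3 kept its call throughout, with 33 and 31.9 RPKM in hypoxia and 44.2 and 44.9 RPKM in normoxia (1.37-fold lower, adjusted p = 0.00339). Of 84 tested proteins of the cytosolic ribosome 0 were called in either direction, and the median was -0.02.

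Genes of cell division and of oxidative metabolism had few or no calls at 48 hr with RPKM as deposited. Complex I apart, the lists named here had more lower calls under the other scalings. Over all genes the lower calls numbered 345 as deposited, 682 after quantile normalization and 866 after centring. DNA replication had 3 of 47 tested members lower and 0 higher (median log2 fold change -0.16), with 2, 0, 0 and 2 lower without library 7, 8, 5 and 6, 6 lower after quantile normalization and 10 after centring. PCNA, the sliding clamp, had 93.3 and 97.9 RPKM in hypoxia, against 120.3 and 115 RPKM in normoxia, and did not pass (adjusted p = 0.0816). Mitosis had 1 of 42 lower (2.38%, against 2.89% over all genes), with 6 lower after quantile normalization and 8 after centring. The lower gene was ASPM, a spindle protein (18.6 and 19.8 RPKM in hypoxia and 24.4 and 26.7 RPKM in normoxia, adjusted p = 0.0101). ASPM did not pass without library 6 or 7. Complex I had 2 of 42 higher and 1 lower (4.76% and 2.38%, against 9.24% and 2.89% over all genes). Complex I kept these counts under both other scalings. Complexes II to V had 2 of 42 higher and 1 lower too, with 3 lower under both other scalings. The TCA cycle list, heat-shock chaperones and proteasome subunits had 0 of 25, 0 of 25 and 0 of 36 called. Those 3 lists had 2, 4 and 1 lower members after quantile normalization and 3, 3 and 2 after centring, with 1 higher in the TCA list under both and 1 higher heat-shock gene after quantile normalization. NDUFB8, a complex I subunit, rose 1.74-fold (adjusted p = 0.00092), and LONP1, a mitochondrial protease counted with complexes II to V, rose 1.65-fold with 49.5 and 50.1 RPKM in hypoxia, against 30.7 and 29.4 RPKM in normoxia (adjusted p = 0.000633). The medians of complexes II to V changed sign after centring (0.05 as deposited, -0.003 centred).

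**Figure D4:**
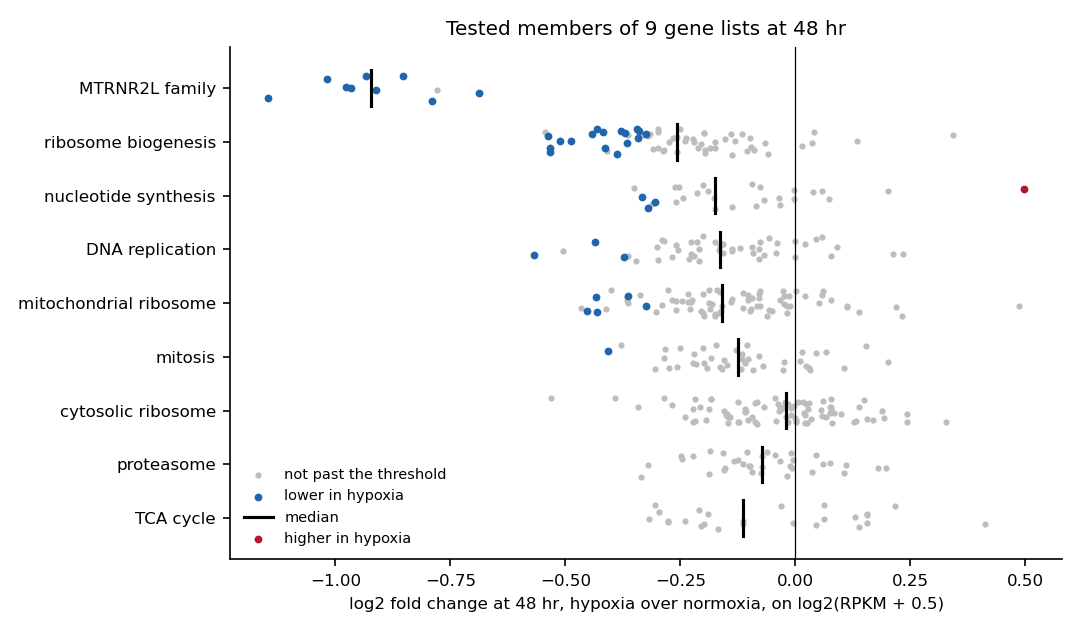
Log2 fold change at 48 hr, hypoxia over normoxia, of every tested member of 9 gene lists, 1 point a gene, with the median as a black bar (vertical jitter carries no meaning). Blue points fell and the red point, TK1, rose. The MTRNR2L family lies furthest to the left at a median of -0.92, ribosome biogenesis at -0.26 and the cytosolic ribosome at -0.02.

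Whether the effect of hypoxia at 48 hr differed from that at the other times was tested as the difference of both log2 fold changes. Against 6 hr, 63 of 11933 genes (0.528%) differed, 61 with a higher effect at 48 hr and 2 with a lower one. Against 6 days, 1276 genes (10.7%) differed, 642 with a higher and 634 with a lower effect at 6 days. Both tests use the 48 hr libraries and so share them, which is why they are given side by side and not compared. Leaving out single libraries gave 11 to 110 genes for the first (11 without library 7, 110 without library 1) and 365 to 630 for the second (365 without library 8, 630 without library 11).

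Genes whose effect was higher at 48 hr than at 6 hr included alpha-arrestins, stress genes and several of the highest folds above. TXNIP had 5.51 and 7.28 RPKM in hypoxia at 6 hr, against 7.23 and 5.4 RPKM in normoxia at 6 hr, with overlapping groups (difference of log2 fold changes 2.73 ± 0.201 SE, adjusted p = 0.000353). ARRDC4 had 1.62 and 1.64 RPKM in hypoxia at 6 hr and 1.59 and 1.35 RPKM in normoxia at 6 hr (difference 1.66 ± 0.143 SE, adjusted p = 0.000599). CA9 had 0.151 and 0.217 RPKM in hypoxia at 6 hr, against 0.0248 and 0 RPKM in normoxia at 6 hr (difference 2.63 ± 0.207 SE, adjusted p = 0.000353). For these 3 genes the hypoxia values of 6 hr lie far under those of 48 hr. NPPB, the gene of B-type natriuretic peptide, had 0.0747 and 0.121 RPKM in hypoxia at 6 hr and 0.0553 and 0 RPKM in normoxia at 6 hr, 2.42 and 1.58 RPKM in hypoxia at 48 hr and 0.0703 and 0 RPKM in normoxia at 48 hr (difference 2.03, adjusted p = 0.00437). SESN2 (1.18), CHAC1 (1.37), DDIT3 (0.88), HMOX1 (1.29), HLA-B (1.05), ALDOC (1.24), BNIP3L (1.23) and SPAG4 (1.33) had higher log2 effects at 48 hr than at 6 hr too (adjusted p = 0.00226, 0.00734, 0.0296, 0.0143, 0.0136, 0.0152, 0.00402 and 0.00208). Of these, the differences of SESN2, BNIP3L and SPAG4 passed under every alternative, while those of CHAC1, DDIT3, HMOX1, HLA-B and ALDOC did not pass without library 7 and, CHAC1 apart, without library 4 or 6 (adjusted p up to 0.0588, 0.133, 0.0994, 0.0994 and 0.106). PFKFB4, SLC2A1, ADM and INSIG2 had log2 fold changes of 3.39, 2.17, 2.02 and 2.44 at 6 hr, and their differences to 48 hr did not pass (adjusted p = 0.389, 0.779, 0.952 and 0.744). The 2 genes with a lower effect were PLA2G4A and the small RNA gene MIR1915 (difference -1.69, adjusted p = 0.00158). Over the alternatives the difference of MIR1915 ran from -3.59 to -1.09. Its precursor hsa-mir-1915 had 0.358 and 0.354 RPKM in hypoxia at 48 hr, against 1.23 and 1.08 RPKM in normoxia at 48 hr. These hypoxia values lie below the added 0.5 RPKM, and the precursor did not pass at 48 hr (adjusted p = 0.441). PLA2G4A had 3.94 and 4.1 RPKM in hypoxia at 6 hr and 4.93 and 3.62 RPKM in normoxia at 6 hr (difference -0.88 ± 0.167 SE, adjusted p = 0.0497), a difference that did not pass without library 3, 4, 5, 6, 7 or 8 (adjusted p up to 0.207).

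At 6 days the effects on DDIT4, CHAC1 and TXNIP were smaller on the log2 scale than at 48 hr, and the normoxia levels of all 3 were higher. DDIT4 had 224 and 201 RPKM in hypoxia at 6 days, against 149 and 152 RPKM in normoxia at 6 days (difference of log2 fold changes, 6 days minus 48 hr, -2.03 ± 0.167 SE, adjusted p = 0.000284). CHAC1 had 21.7 and 23.2 RPKM in hypoxia at 6 days and 21.9 and 25.8 RPKM in normoxia at 6 days (difference -1.92 ± 0.181 SE, adjusted p = 0.000575). TXNIP had 146 and 141 RPKM in hypoxia at 6 days, against 60.4 and 63.3 RPKM in normoxia at 6 days (difference -1.54 ± 0.201 SE, adjusted p = 0.00214). In each, both hypoxia and normoxia values of 6 days lie above those of 48 hr in the same oxygen. SESN2 (-0.91), ARRDC4 (-0.93), DDIT3 (-0.91), TRIB3 (-0.88), SLC2A3 (-0.66), PFKFB4 (-1.08), ALDOC (-1.47) and NEAT1 (-1.34) also had lower log2 effects at 6 days than at 48 hr (adjusted p = 0.00265, 0.0043, 0.0060, 0.00945, 0.0116, 0.00196, 0.00196 and 0.00124). The difference of SLC2A3 did not pass without library 7 or 12 (adjusted p up to 0.0522).

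Other effects were larger at 6 days. STC1, a stanniocalcin, had 0.31 and 0.219 RPKM in hypoxia at 48 hr, against 0.038 and 0.0167 RPKM in normoxia at 48 hr, and 5.73 and 5.78 RPKM in hypoxia at 6 days, against 0.0173 and 0.0255 RPKM in normoxia at 6 days (difference 3.05 ± 0.168 SE, adjusted p = 1.65e-05). NPPB reached 13.7 and 11.1 RPKM in hypoxia at 6 days and is listed at 0 in both normoxia libraries of 6 days (difference 2.48, adjusted p = 0.000592). LOX, GBE1 and HK2 had differences of 1.94, 1.12 and 0.88 (adjusted p = 0.000419, 0.0043 and 0.00527). TFRC, the transferrin receptor, had 122 and 112 RPKM in hypoxia at 48 hr, against 94.6 and 95.3 RPKM in normoxia at 48 hr (adjusted p = 0.114). At 6 days TFRC had 75.8 and 76.6 RPKM in hypoxia and 13.2 and 12.5 RPKM in normoxia (difference 2.23 ± 0.156 SE, adjusted p = 7.06e-05). The difference of TFRC goes with a normoxia level at 6 days far under that of 48 hr.

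**Figure D5:**
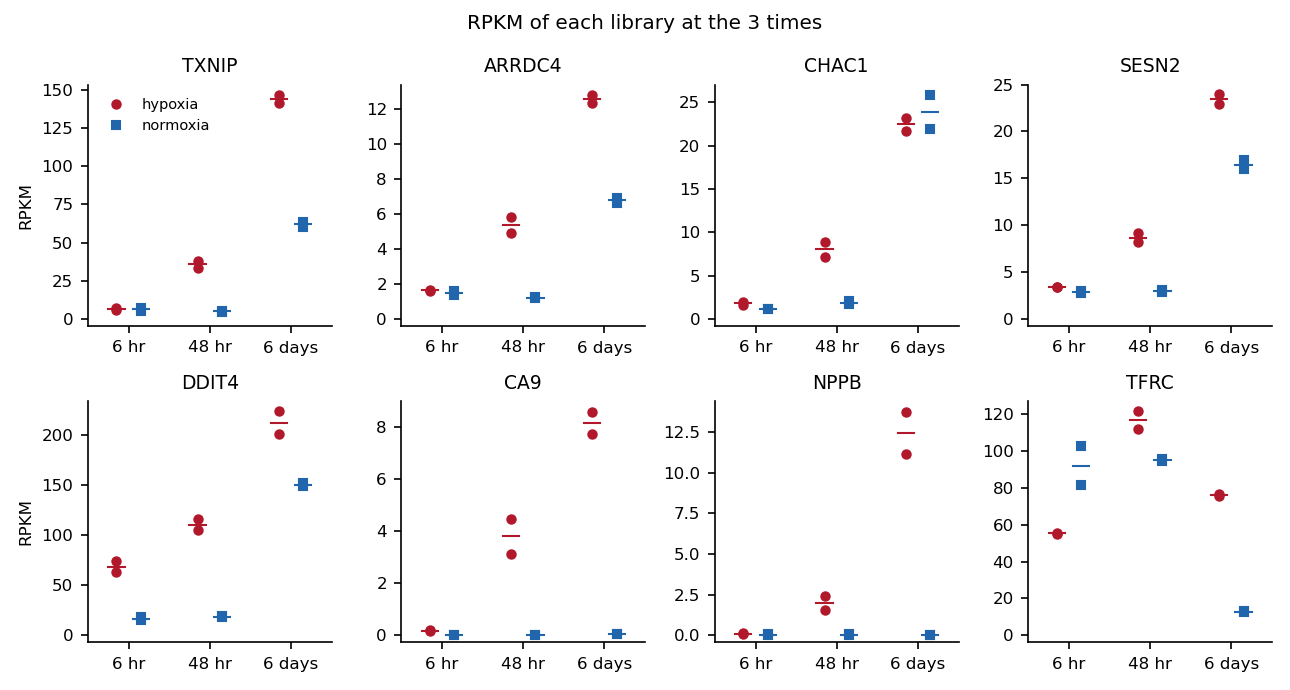
RPKM in each library at 6 hr, 48 hr and 6 days for 8 genes, with hypoxia (red circles, left) and normoxia (blue squares, right) at each time and the mean of both libraries as a short line. TXNIP, ARRDC4, CHAC1 and SESN2 lie closer together at 6 hr than at 48 hr, their normoxia levels are higher at 6 days than before, and TFRC in normoxia is lowest at 6 days.

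Among precursor miRNAs, the hairpins that are cut into mature miRNAs, 1 of 166 tested passed at 48 hr (0.602%): hsa-mir-210, the precursor of the miRNA best known for its rise in low oxygen. Its mature 3′ arm is shown from RefSeq (chr11:568112-568133, minus strand, GRCh38.p14), with the seed, bases 2 to 8, in capitals.
hsa-miR-210-3p: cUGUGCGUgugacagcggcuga

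The precursor had 7.81 and 7.2 RPKM in the hypoxia libraries, which is about 29.9 and 27.9 reads, and is listed at 0 in both normoxia libraries. Against a floor of 3 reads in each normoxia library, 0.671 and 0.591 RPKM on a hairpin of 110 bases, it was at least 11.9-fold higher in hypoxia (adjusted p = 0.00063). The floor covers counting error only. The gene row MIR210 holds nearly the same values, 7.81 and 6.97 RPKM in hypoxia and 0 in both normoxia libraries, so the 2 tables do not count as separate evidence. Small nucleolar RNAs of the C/D class had 9 of 213 tested members higher and 0 lower, and this count was 1, 2, 15 and 1 without library 7, 8, 5 and 6. The C/D share of 4.23% higher lies below the 9.24% over all genes, and H/ACA and Cajal-body RNAs had 0 of 123 called. At 6 hr MIR210 had 2.13 and 2.04 RPKM in hypoxia, against 0.351 and 0.696 RPKM in normoxia, and its effect at 48 hr was higher than at 6 hr (adjusted p = 0.0158), a difference that did not pass without library 2, 3, 4, 5, 6 or 7 (adjusted p up to 0.136).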

How the data were processed

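RNA was sequenced on a SOLiD 5500xl instrument with 75-base forward reads from a total RNA kit after ribosomal depletion, per the labels' protocols. The authors deposited RPKM per RefSeq symbol and per miRNA precursor, and the submitters' processing notes name Partek 6.6 and hg19, with no role given. How RPKM was scaled and how reads shared by copies were placed is not stated in what was read here. Because the values are RPKM and not counts, log2(RPKM + 0.5) was fitted in limma 3.58.1 (R 4.3.3) with 6 group means over 12 libraries and an intensity trend, 6 residual degrees of freedom, and Benjamini-Hochberg adjustment at 0.05 over all genes with at least 1 RPKM in at least 2 libraries. The model was tested on simulated data. Library sizes of 25.1 to 51.7 M reads were read from the steps of the precursor values and give counting error only.

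Members and lists were chosen with earlier results of these data known. Genes were named by a rule: the 15 highest and 12 lowest fold changes past the threshold with at least 2 RPKM and no overlap, up to 5 called members of a list with a partner or regulator, the 6 highest and 6 lowest differences between times, and up to 8 called genes by level. MIR937, MIR1915, FAM162A, PYGL, GYG1, PGAM1, VEGFA, MIF, KDM5B, FTO, DDIT3, TRIB3, ATF4, HLA-E, TAP1, TAP2 and the time differences of SESN2, DDIT3, HMOX1, HLA-B, BNIP3L, SPAG4, ALDOC, PFKFB4, SLC2A3, TRIB3, NEAT1, LOX, GBE1 and HK2 were named after their values were seen. Alternatives were 2 other added values, 2 other filters, 2 other scalings, no trend, the compared libraries alone, and each library left out.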

Additional observations from a re-analysis of the deposited data

Results flagged for a closer look

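Tests of the difference between times, in limma with Benjamini-Hochberg adjustment, singled out 63 genes whose effect of hypoxia at 48 hr differed from that at 6 hr and 1276 whose effect at 6 days differed from that at 48 hr. On the log2 scale, 48 hr minus 6 hr, the named differences were 2.73 for TXNIP, 2.63 for CA9, 2.62 for MIR210, 2.03 for NPPB, 1.84 for MIR200C, 1.66 for ARRDC4, 1.37 for CHAC1, 1.33 for SPAG4, 1.29 for HMOX1, 1.24 for ALDOC, 1.23 for BNIP3L, 1.18 for SESN2, 1.05 for HLA-B, 0.88 for DDIT3 and -0.88 for PLA2G4A, and -1.69 for MIR1915.

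For 6 days minus 48 hr, positive differences were 3.46 for SNORD115-4, 3.09 for MIR29B2, 3.05 for STC1, 2.58 for MIR130A, 2.48 for NPPB, 2.23 for TFRC, 1.94 for LOX, 1.12 for GBE1 and 0.88 for HK2. Negative ones were -2.03 for DDIT4, -1.92 for CHAC1, -1.69 for HIST1H4I, -1.68 for MIR663, -1.54 for TXNIP, -1.54 for ARHGAP4, -1.47 for ALDOC, -1.34 for NEAT1, -1.08 for PFKFB4, -0.93 for ARRDC4, -0.91 for SESN2, -0.91 for DDIT3, -0.88 for TRIB3 and -0.66 for SLC2A3. SNORD115-4 has near-identical copies and its value is uncertain. The MIR200C, MIR29B2 and MIR663 differences did not pass when single libraries were left out, nor MIR130A without library 8. ARHGAP4, a GTPase activator, had 3.79 and 3.45 RPKM in hypoxia at 6 days, against 5.82 and 6.52 RPKM in normoxia at 6 days, while at 48 hr it had 5.36 and 6.17 RPKM in hypoxia and 3.36 and 2.65 RPKM in normoxia.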

How the results depend on the processing

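The count of genes called at 48 hr was 619 to 811 with 1 of its 4 libraries left out, and 1177 to 1977 under the other alternatives. For 48 hr minus 6 hr it was 97 after trimmed-mean centring, 36 with the compared libraries alone and 11 to 110 with 1 library left out. For 6 days minus 48 hr it was 2479 after quantile normalization, 2384 with the compared libraries alone and 365 to 630 with 1 library left out. Precursors called numbered 6 with no filter and 1 to 2 with 1 library left out. Of the 225 genes chosen by the rule or named and called at 48 hr, 136 passed in each alternative run, as did 27 of 39 named differences, and 0 of either changed sign; the cause of the lost calls was not tested. Sign changes of values that did not pass are not in this count. The 225 genes and 39 differences were chosen as called in these same libraries, so their unchanged signs are no support for them. Where the groups of a gene do not overlap, leaving out a library cannot change the sign. After centring, 1 member each of the phosphofructokinase, aldolase to LDH, pyruvate gate, acid export and HIF lists was lower, and 0 as deposited. A lone library left in a group is assumed to vary like the other groups. No paired analysis was possible because each library number occurs once, so the groups share no number. The medians near 0 of the unfolded protein response, p53, thioredoxin and arrestin, complexes II to V, NRF2, lysosome and epithelial marker lists changed sign after quantile normalization or centring, so no direction is read from them.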
